A study of Mus musculus with 6 samples.

Results

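The 10 genes described here break down, build, recycle and use glutathione or act beside it in ferroptosis: Chac1, Chac2, Gclc, Gclm, Gss, Gsr, Slc7a11, Slc3a2, Gpx4 and Hmox1. They were picked by symbol from a table of 22219 genes, all 10 had a row, and all 10 passed the filter on low counts that left 17570 genes for testing. The choice was made knowing that Chac1 had the largest log2 fold change of all genes tested, so the difference of these genes between the genotypes is given as a description and not as evidence.

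Glutathione is a tripeptide of glutamate, cysteine and glycine, and the main thiol that protects cells from peroxides. Cystine enters through a transporter made of SLC7A11 and SLC3A2, glutamate-cysteine ligase (a catalytic subunit from Gclc and a modifier from Gclm) and glutathione synthetase (Gss) assemble the tripeptide, and glutathione reductase (Gsr) returns it from its oxidised form. GPX4 uses it to reduce lipid peroxides, whose build-up kills cells by ferroptosis, and Gpx4 is known in the testis for its needed role in sperm. CHAC1 is a cyclotransferase that cleaves glutathione inside the cell, and its gene is a known target of ATF4 and CHOP, transcription factors of the integrated stress response.

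RNA was measured in whole testes at day 10. The cKO group (3 libraries) carried a germ cell conditional knockout of Eif5, the gene of translation initiation factor eIF5, made by crossing Eif5 fl/fl mice with Stra8-Cre mice, in which the Stra8 promoter drives the recombinase in germ cells. The control group (3 libraries) is named only as control. Whether controls carried floxed alleles or Cre is not stated in the labels, nor are strain, sire or whether a library pooled animals, and the 3 libraries of each group are not said to come from different mice, so p-values reflect the spread between libraries alone, which may be technical. The driver is not aimed at the somatic cells of the organ, whose RNA is in every library.

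Read totals ran from 32555443 to 48015318 in cKO and from 33631996 to 48409550 in control. Eif5 itself was lower in cKO, with a log2 fold change of -0.31 (SE 0.0947, limma adjusted p = 0.024), a call that ended without cKO replicate 1 or 2 (adjusted p = 0.13 and 0.0875). Reads from the deleted part of Eif5 could not be separated from the rest. Markers of the labelled tissue were present in both groups, as read from the summed level of each marker list in each library. The summed level of 20 germ cell markers lay between 53730 and 58044 normalised read counts in cKO and between 84154 and 96335 in control. That of 21 Sertoli cell markers lay between 676284 and 766028 in cKO and between 445243 and 614712 in control, with control replicate 1 the lowest. In a whole testis, fewer cells of a type and less RNA per cell cannot be told apart. Levels are given as normalised read counts, the deposited reads divided by 1 size factor per library.

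Breakdown of glutathione was where the largest difference lay. Chac1, on chromosome 2, had 151, 181 and 136 normalised read counts in cKO replicates 1 to 3, against 19.2, 24.0 and 13.1 in control replicates 1 to 3. Every cKO library was far above every control, with no overlap. The means were 156 ± 23.3 in cKO and 18.8 ± 5.45 in control (SD, n = 3 each), a ratio of 8.32. On the scale used for testing, log2(value + 2), the fold change was 2.95 (SE 0.296), which ranked 1 of 17570 genes from the highest. The reads behind these values were 134, 226 and 112 in cKO and 26, 22 and 12 in control, so counting error alone is wide in control. All 6 of these counts were even, as were 77.2% of all counts from 1 to 30 in the table, so the number of independent fragments may be smaller than the count. Over the 14 other settings tried the log2 fold change of Chac1 ran from 2.50 to 3.13.

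The 300 bases around the start of Chac1 (GRCm38.p6, chr2:119350992-119351291, plus strand) are shown because this gene differs most and because its window holds an 8-base match to the C/EBP-ATF response element, the site at which ATF4 is known to act. The same window of Slc7a11 (chr3:50443564-50443863, minus strand) holds such a match on each strand, and is shown beside it. Sequences come from RefSeq, from 250 bases before to 50 bases after the start, 5′ to 3′ on the strand of the gene, and capitals mark the matches.
Chac1: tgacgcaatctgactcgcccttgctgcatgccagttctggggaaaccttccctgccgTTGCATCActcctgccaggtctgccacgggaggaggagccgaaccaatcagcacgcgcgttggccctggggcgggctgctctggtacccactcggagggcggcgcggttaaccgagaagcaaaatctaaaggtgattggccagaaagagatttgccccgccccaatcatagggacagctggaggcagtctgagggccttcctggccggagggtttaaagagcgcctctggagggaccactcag
Slc7a11: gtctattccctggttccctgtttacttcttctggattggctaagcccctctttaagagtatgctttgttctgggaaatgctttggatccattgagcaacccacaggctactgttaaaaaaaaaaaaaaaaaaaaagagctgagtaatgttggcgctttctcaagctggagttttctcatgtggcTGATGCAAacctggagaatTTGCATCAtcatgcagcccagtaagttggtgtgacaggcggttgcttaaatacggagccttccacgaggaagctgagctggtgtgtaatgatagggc
The element was searched as TGATGNAA on both strands. In Chac1 the match reads TTGCATCA, the element on the opposite strand, and begins 193 bases before the start. In Slc7a11 it reads TGATGCAA, beginning 66 bases before the start, and TTGCATCA, beginning 47 bases before. Windows were found for 7 of the 10 genes, not for Gclc, Gsr and Hmox1 (10 windows, with 4 start sites for Gpx4), and these 2 genes were the ones with a match, while 3.97% of 32851 promoter windows of that length in the table hold one. A match describes letters in this window and does not show binding.

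Chac2, on chromosome 11, encodes a second cyclotransferase that breaks down glutathione. It had 180, 200 and 199 normalised read counts in cKO, against 127, 116 and 182 in control. Control replicate 3 reached above cKO replicate 1, so the groups overlapped. The log2 fold change was 0.46 (SE 0.198) and the gene was not called at an adjusted p under 0.05, though without control replicate 3 it was called, at 0.65. Read per kilobase of transcript, Chac1 made up 37.4%, 39.3% and 32.7% of the sum of both cyclotransferase genes in cKO and 9.72%, 12.8% and 4.87% in control. Chac2 was thus the higher of the pair in all 6 libraries on that scale, and Chac1 came nearer to it in each cKO library than in any control.

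**Figure D1:**
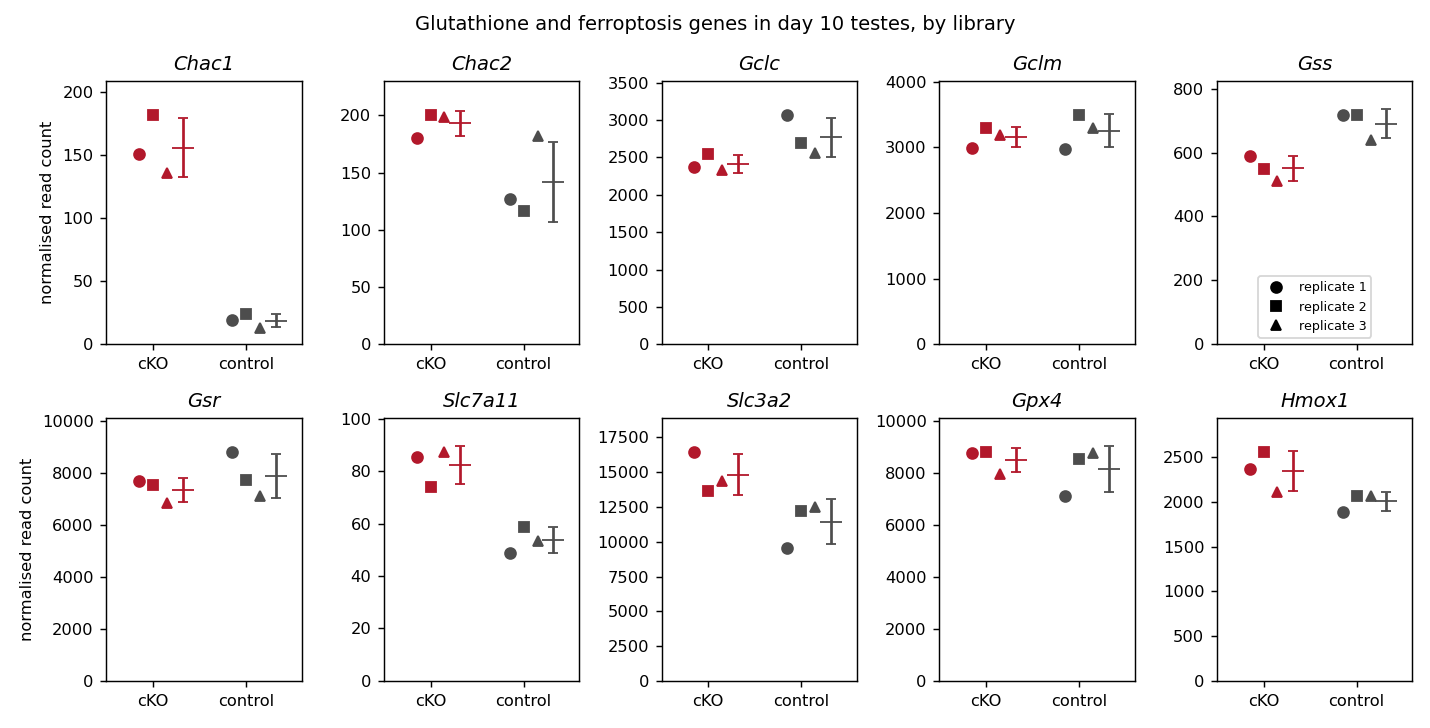
Normalised read count of each of the 10 genes in every library (points, with replicates by shape), cKO on the left and control on the right of each panel, with the mean and SD beside the points (n = 3 each). Chac1 lies between 136 and 181 in cKO and between 13.1 and 24.0 in control, while the cKO and control points of Gclm, Gsr and Gpx4 are intermingled.

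None of the 4 genes of synthesis and recycling was called by limma over all 6 libraries with the deposited factors, while edgeR and DESeq2 called Gss lower. Gclc, on chromosome 9, the catalytic subunit of the rate-limiting ligase, had 2371, 2549 and 2328 normalised read counts in cKO, against 3063, 2688 and 2559 in control. All cKO libraries were below all controls, but cKO replicate 2 and control replicate 3 nearly touched, and the log2 fold change was -0.19 (SE 0.0961, not called). Gclm, on chromosome 3, the modifier subunit, had 2993, 3300 and 3185 in cKO, against 2981, 3489 and 3301 in control. Its groups overlapped throughout (log2 fold change -0.04, SE 0.0935, not called). The ratio of Gclc to Gclm per kilobase averaged 0.737 ± 0.0302 in cKO and 0.826 ± 0.142 in control (SD, n = 3 each), with control replicate 1 apart at 0.990 and the other two at 0.742 and 0.746.

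Gss, on chromosome 2, which adds glycine in the last step, had 591, 549 and 511 normalised read counts in cKO, against 717, 716 and 639 in control. The groups did not overlap, and the log2 fold change was -0.33 (SE 0.120). It was not called in the limma fit (limma adjusted p = 0.0588) and was called lower by edgeR on the recovered reads (-0.33, edgeR adjusted p = 0.0483). These 2 values lie close to the limit of 0.05, on either side of it. Gss was also called lower by DESeq2 (-0.33), with library totals (-0.41), with scaling to the Sertoli list (-0.80) and without control replicate 3 (-0.38). In GENCODE M21 exons of Gss share bases with 3 genes on the opposite strand (Acss2, Gssos1 and Gssos2), and exons of Gclm with 2 others (Gm17494 and Gm6061). The strand setting of the counting is not given in the sources used here, so reads from these neighbours may be mixed in. Gsr, on chromosome 8, had 7696, 7538 and 6842 in cKO, against 8816, 7728 and 7125 in control, and the groups overlapped (log2 fold change -0.10, SE 0.0986, not called).

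The 300 bases around the start of Gclm (GRCm38.p6, chr3:122245307-122245606, plus strand) are shown as the one member window that held a match to the core of the antioxidant response element, the site of the transcription factor NRF2, of which Gclm is a known target; capitals mark the match.
Gclm: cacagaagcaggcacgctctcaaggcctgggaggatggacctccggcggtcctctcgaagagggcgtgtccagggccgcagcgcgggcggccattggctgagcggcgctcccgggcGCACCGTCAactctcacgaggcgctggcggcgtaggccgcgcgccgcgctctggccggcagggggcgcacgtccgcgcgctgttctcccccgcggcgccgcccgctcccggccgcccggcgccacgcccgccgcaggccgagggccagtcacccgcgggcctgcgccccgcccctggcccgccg
This core was searched as TGACNNNGC on both strands. The match reads GCACCGTCA, the core on the opposite strand, and begins 134 bases before the start. It is in 12.4% of all windows, and none of the 10 windows held both this core and the C/EBP-ATF element.

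Of the 2 subunit genes of the cystine importer, Slc3a2 was called higher in cKO and Slc7a11 was not, and their levels were far apart. Slc7a11, on chromosome 3, the light chain that carries cystine in exchange for glutamate, had 85.5, 73.9 and 87.2 normalised read counts in cKO, against 48.8, 58.8 and 53.4 in control. Every cKO library was above every control, at a ratio of means of 1.53, but the gene was low and was not called (log2 fold change 0.60, SE 0.256). Slc3a2, on chromosome 19, the heavy chain shared with several other amino acid transporters, had 16440, 13652 and 14379 in cKO, against 9565, 12223 and 12479 in control. The groups did not overlap, with control replicate 1 well below the other controls, and the gene was called higher (log2 fold change 0.38, SE 0.112). That call ended with library totals (0.30) and without cKO replicate 1 (0.30), cKO replicate 3 (0.40) or control replicate 1 (0.26), and scaled to the Sertoli list the value was -0.09.

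Per kilobase, the heavy chain exceeded the cystine light chain 615, 591 and 527 times in cKO and 627, 665 and 747 times in control. Among the other light chains that pair with SLC3A2, a set looked at after the values were seen, Slc7a5 was the most abundant, at 13697 ± 950 normalised reads per kilobase in cKO and 10393 ± 1388 in control (SD, n = 3 each). Slc7a6 had 1353 ± 59.5 in cKO and 1186 ± 131 in control, and Slc7a8 827 ± 27.0 in cKO and 623 ± 96.7 in control. Slc7a7 had 170 ± 19.2 in cKO and 125 ± 14.7 in control, and Slc7a10 13.9 ± 4.73 in cKO and 13.9 ± 4.44 in control. Slc7a11, at 14.1 ± 1.25 in cKO and 9.22 ± 0.858 in control, was thus at the low end of the light chains beside Slc7a10. The ratio of Slc3a2 to Slc7a5 per kilobase was 0.594 ± 0.0219 in cKO and 0.604 ± 0.0163 in control, closer than the ratio to Slc7a11.

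Gpx4, on chromosome 10, the selenoprotein that reduces lipid peroxides, had 8747, 8796 and 7961 normalised read counts in cKO, against 7112, 8537 and 8762 in control. The groups overlapped, and the log2 fold change was 0.07 (SE 0.0995, not called). Its direction turned with library totals (-0.02) and without control replicate 1 (-0.03), the lowest control, and with scaling to the Sertoli list it was called lower, at -0.41. These are gene totals, so the cytosolic, mitochondrial and nuclear forms of GPX4 were not told apart. Among 1881 genes within 2-fold of its mean level, the 5 whose pattern over the 6 libraries was most like that of Gpx4 were Pcnxl3, Abhd12, Srf, Eif3k and 2510039O18Rik, with root mean square differences of 0.0248 to 0.0591 on the log2 scale.

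Hmox1, on chromosome 8, encodes the inducible haem oxygenase, which frees iron from haem and is a known target of NRF2 and BACH1. It had 2370, 2555 and 2106 normalised read counts in cKO, against 1886, 2067 and 2063 in control. Every cKO library was above every control, with cKO replicate 3 close to 2 controls, and the gene was not called (log2 fold change 0.22, SE 0.0983; -0.25 with scaling to the Sertoli list). Hmox1 is also expressed in macrophages and in cells that take up red cells. Of 17 macrophage markers 7 were higher and 0 lower (41.2%, where 20.0% of all genes were called in either direction). Their sum ran from 12882 to 15546 in cKO and from 10544 to 13212 in control, so the groups overlapped. Of 10 erythroid markers tested 2 were higher and 0 lower, which is 20.0%, the same share as over all genes. Their sum ran from 6429 to 13753 in cKO and from 5450 to 6413 in control, so the groups did not overlap but nearly touched. The median log2 fold change was 0.31 for the macrophage markers and 0.44 for the erythroid markers, against 0.01 for all genes. The macrophage and erythroid sums were highest in cKO replicate 1 and Hmox1 was highest in cKO replicate 2. The macrophage sum and Hmox1 were both lowest in control replicate 1. The part of these cells in the level of Hmox1 was not tested.

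**Figure D2:**
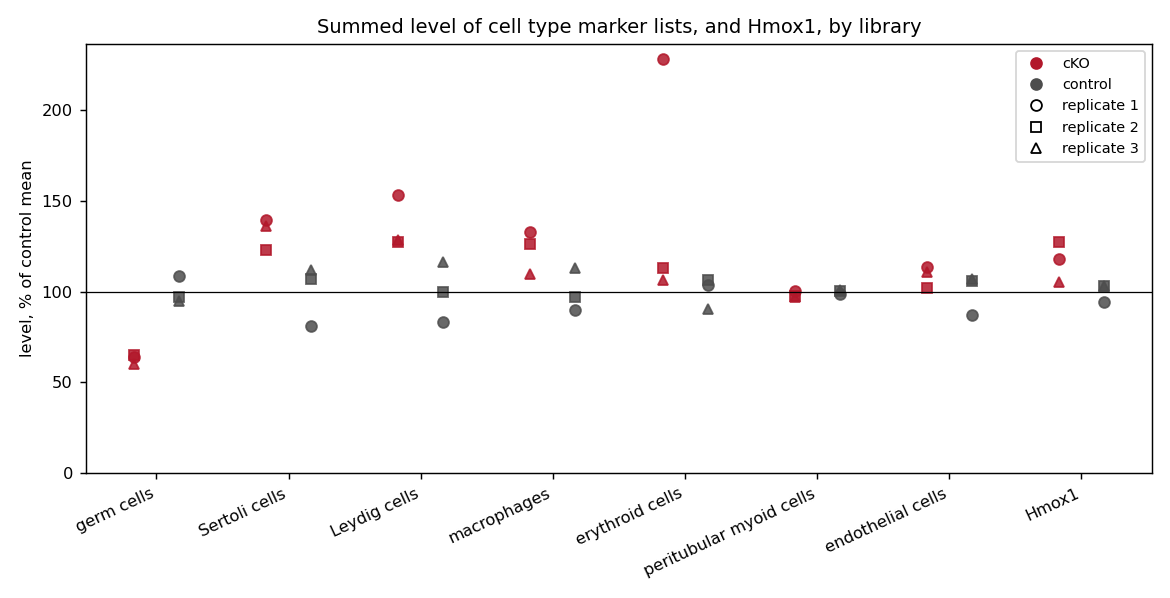
Summed normalised read count of 7 cell type marker lists, and Hmox1, in each library as a percentage of the control mean (points, cKO left of control, replicates by shape). The germ cell sum lies between 60.4% and 65.3% in cKO, the Sertoli sum between 123% and 139%, and 1 cKO library stands apart in the erythroid sum at 228%.

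In all, limma called 2 of the 10 genes higher and 0 lower, where 20.0% of all 17570 genes were called in either direction (9.63% higher and 10.4% lower). By edgeR and by DESeq2 on the recovered reads, with library totals and without control replicate 3, 1 of the 10 was lower, which was Gss. The cKO and control values did not overlap for 6 of the 10, with Chac1, Slc7a11, Slc3a2 and Hmox1 above control and Gclc and Gss below, where 36.7% of all genes did not overlap. The median log2 fold change of the 10 genes was 0.14 and that of all genes was 0.01. Since the genes were chosen with this contrast in view, nothing is read from these shares. The genes of synthesis and recycling (Gclc, Gclm, Gss and Gsr) had values of -0.33 to -0.04, and limma called none of them. Those of breakdown and cystine import had values of 0.38 to 2.95, and limma called only Chac1 and Slc3a2. Under Sertoli scaling the former read -0.80 to -0.52, and the latter 2.50 for Chac1, 0.13 for Slc7a11, -0.01 for Chac2 and -0.09 for Slc3a2.

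Read per kilobase of transcript, the order of levels in control was Gpx4, Slc3a2, Gsr, Hmox1, Gclm, Gclc, Gss, Chac2, Chac1 and Slc7a11. Gpx4 stood at 8865 ± 489 in cKO and 8485 ± 933 in control, and Slc3a2 at 8149 ± 795 in cKO and 6279 ± 887 in control, so these neighbours overlapped in cKO and not in control (SD, n = 3 each). Gsr followed at 2753 ± 170 in cKO and 2952 ± 321 in control, and Hmox1 at 1494 ± 144 in cKO and 1278 ± 66.0 in control. Gclm, at 959 ± 47.1 in cKO and 988 ± 78.1 in control, and Gclc, at 706 ± 34.3 in cKO and 809 ± 76.6 in control, changed places when the longest transcript was used (Gclm at 565 in cKO and 583 in control). Gss had 299 ± 21.5 in cKO and 375 ± 24.3 in control, and Chac2 165 ± 9.57 in cKO and 122 ± 30.2 in control. Chac1, at 95.3 ± 14.3 in cKO and 11.5 ± 3.33 in control, overlapped with Slc7a11 in control and stood above it in every cKO library.

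**Figure D3:**
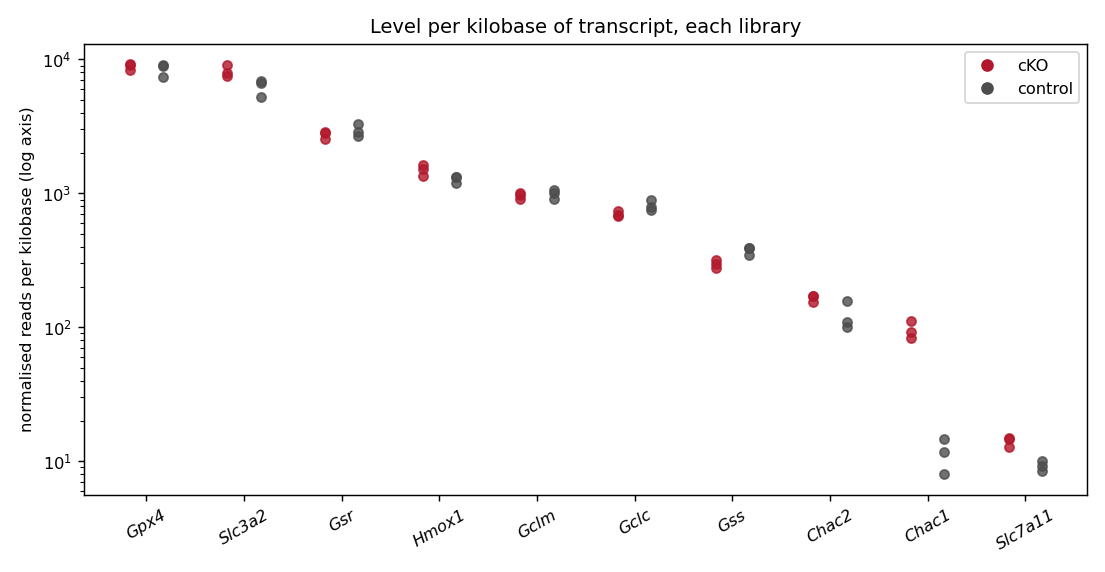
Normalised reads per kilobase of transcript for the 10 genes on a log axis, each library a point, cKO left of control, genes ordered by the control mean. The levels span from 9.22 for Slc7a11 to 8485 for Gpx4 in control, and Chac1 is the gene whose groups are farthest apart.

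How the libraries are scaled sets the sign of several of these differences. Scaling to the median ratio of 21 Sertoli cell markers, of which 13 were called higher and 1 lower with the deposited factors, brought the all-gene median to -0.46 on the log2 scale, and library totals brought it to -0.08. Of all genes 37 were then called higher and 9336 lower with the Sertoli list, and 807 higher and 2495 lower with library totals. Under Sertoli scaling Chac1 was still called higher (2.50), Slc7a11 read 0.13, Chac2 -0.01 and Slc3a2 -0.09, and Gclc (-0.67), Gclm (-0.52), Gss (-0.80), Gsr (-0.57) and Gpx4 (-0.41) were called lower. Set against the median of all genes, as the scaling shifts every gene by nearly the same amount, the values were 2.96 for Chac1, 0.60 for Slc7a11, 0.37 for Slc3a2, 0.05 for Gpx4 and -0.34 for Gss. With the deposited factors these were 2.95, 0.59, 0.37, 0.06 and -0.33, in the same order of genes.

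**Figure D4:**
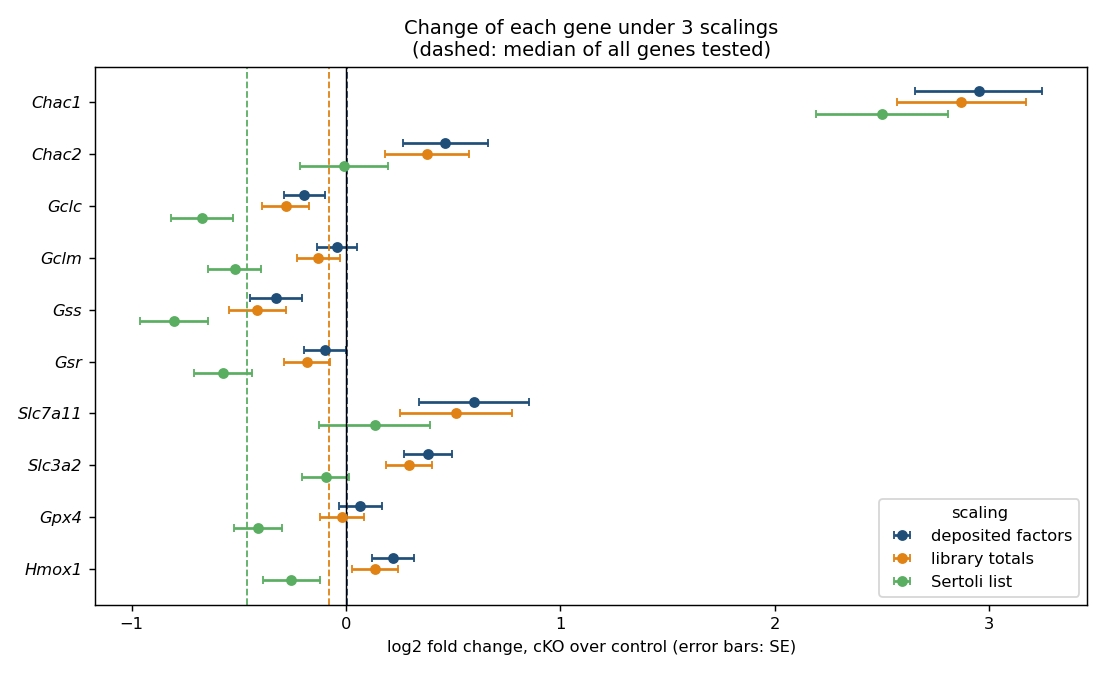
Log2 fold change (cKO over control, points with SE) of the 10 genes with the deposited factors, library totals and scaling to the Sertoli list; dashed lines mark the median of all genes under each scaling, at 0.01, -0.08 and -0.46. Chac1 stays between 2.50 and 2.95, while Slc3a2, Hmox1, Chac2 and Gpx4 cross 0 under Sertoli scaling, where Gpx4 is called lower.

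The gene whose pattern over the 6 libraries was most like Chac1 was Slc7a3, a transporter of cationic amino acids, with a root mean square difference of 0.314 on the log2 scale among 17560 genes. It had 128, 115 and 124 normalised read counts in cKO, against 12.6, 24.0 and 15.3 in control. The next were Tmc1 (0.883), 9630028H03Rik (0.908), Cox6a2 (0.939) and Lmo3 (0.941). Values were centred on the control mean, so this measure largely restates the size of the fold change between the groups. The log2 fold change was 2.95 for Chac1, 2.73 for Slc7a3, and between 1.69 (Cox6a2) and 2.02 (Tmc1) for the others. Tmc1 had at most 12.8 normalised read counts in any library and was not called (limma adjusted p = 0.0506). In control, 9630028H03Rik had at most 5.92 and Lmo3 at most 14.8. These values are too low to read the patterns closely, and Slc7a3 was about as low in control as Chac1.

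The other genes of the pathway were taken from 10 lists put together by function. Of 206 with a row, 200 were tested, and 41 were higher and 7 lower, 24.0% in all against 20.0% of all genes, with a median log2 fold change of 0.15 against 0.01. Under Sertoli scaling the calls were 2 higher and 91 lower, where 37 of all 17570 genes were higher and 9336 lower. Library totals gave 22 higher and 9 lower, where 807 of all genes were higher and 2495 lower. The numbers higher were 24, 22 and 26 without cKO replicate 1, 2 or 3, and the numbers lower were 3 and 2 without cKO replicate 2 or 3. The directions below are with the deposited factors, and each list's median under Sertoli scaling stands beside it, to be read against -0.46 for all genes. Counts under Sertoli scaling are likewise to be read against the 9336 of 17570 genes lower under it.

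Of 20 genes in the list of ATF4 and its best known targets, 11 were higher and 0 lower (55.0%, against 20.0% of all genes). The median was 0.36 (-0.11 under Sertoli scaling, with 2 higher and 2 lower). Slc7a3 had the largest value (2.73, limma adjusted p = 4.35e-06), and Trib3, a pseudokinase gene induced by ATF4 and CHOP, rose to 409 ± 28.0 normalised read counts in cKO, against 198 ± 10.8 in control (SD, n = 3 each; log2 fold change 1.04, limma adjusted p = 5.86e-05). Atf4 itself averaged 9223 ± 219 in cKO and 5712 ± 482 in control (0.69, limma adjusted p = 2.72e-05), and Ddit3, which encodes CHOP, 1518 ± 62.5 in cKO and 989 ± 165 in control (0.63, limma adjusted p = 0.00083). The number higher was 5 and 7 without cKO replicate 1 or 2 and 6 with library totals. Atf4 (0.22) and Ddit3 (0.15) were not called under Sertoli scaling. That genes of this list are higher in cKO was known when it was put together, so its count is no independent support.

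Of 22 genes of NRF2 regulation tested 2 were higher and 0 lower (9.09%, against 20.0% of all genes). The median was 0.11 (-0.36 under Sertoli scaling). Nfe2l2, which encodes NRF2, averaged 4816 ± 275 normalised read counts in cKO and 4445 ± 133 in control (log2 fold change 0.11, limma adjusted p = 0.4). Its inhibitor Keap1 (0.13, limma adjusted p = 0.36) and the repressor Bach1 (0.13, limma adjusted p = 0.351) were not called either. Under Sertoli scaling these 3 were called lower, at -0.36, -0.34 and -0.34. The detoxifying enzyme genes Ephx1 (0.39, limma adjusted p = 0.0422) and Ugdh (0.33, limma adjusted p = 0.0372) were the genes called. Ephx1 ended without any cKO replicate or control replicate 1 or 2 (adjusted p between 0.0584 and 0.207), and Ugdh without cKO replicate 2 or 3 or control replicate 2 or 3 (between 0.0503 and 0.165).

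In the list of other glutathione peroxidase and transferase families, 9 of 26 genes tested were higher and 0 lower (34.6%, against 20.0% of all genes). The median was 0.24 (-0.24 under Sertoli scaling, with 0 higher and 6 lower). Gpx8, a peroxidase gene of the endoplasmic reticulum, averaged 3006 ± 202 normalised read counts in cKO and 2038 ± 152 in control (SD, n = 3 each; log2 fold change 0.56, limma adjusted p = 0.000371). Gpx7, its close relative in the same compartment, had a value of 0.44 (limma adjusted p = 0.00579). The transferase genes Gstm6 (0.48, limma adjusted p = 0.00326) and Gstp1 (0.44, limma adjusted p = 0.00402) belong to families of near-identical copies, so their values are uncertain where reads were shared. These 4 calls held without any 1 library and ended under Sertoli scaling, where the values were 0.08, -0.04, 0.0029 and -0.04.

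In the list of the gamma-glutamyl cycle and related glutathione genes, 1 of 12 was higher and 3 were lower (33.3%, against 20.0% of all genes). The median was 0.06 (-0.41 under Sertoli scaling). Ggct, the cyclotransferase gene that acts on the gamma-glutamyl amino acids, fell to 720 ± 41.4 normalised read counts in cKO, against 949 ± 24.6 in control (SD, n = 3 each; log2 fold change -0.40, limma adjusted p = 0.0129). Ggt7 (-0.55, limma adjusted p = 0.0194) and the aminopeptidase gene Anpep (-0.35, limma adjusted p = 0.0376) were also lower, and Ggt5, a glutamyltransferase gene of the cell surface, was higher (0.45, limma adjusted p = 0.0196; -0.03 under Sertoli scaling). Ggct lost its call without cKO replicate 2 (adjusted p = 0.0772) and Ggt7 without cKO replicate 2 or 3 or control replicate 3 (between 0.0543 and 0.077). Anpep lost it without any cKO replicate or control replicate 2 or 3 (between 0.0559 and 0.158), and Ggt5 without cKO replicate 1 or 2 or control replicate 1 or 2 (between 0.0509 and 0.0851).

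Among 18 genes of cysteine supply and use 2 were higher and 0 lower (11.1%, against 20.0% of all genes). The median was 0.13 (-0.34 under Sertoli scaling). Slc1a4, a transporter of serine, alanine and cysteine, averaged 1314 ± 109 normalised read counts in cKO and 793 ± 84.6 in control (SD, n = 3 each; log2 fold change 0.73, limma adjusted p = 0.000129), and it was not called under Sertoli scaling (0.25). Mpst, a sulfurtransferase gene, had a value of 0.35 (limma adjusted p = 0.0329; -0.13 under Sertoli scaling), which lost its call without any cKO replicate or control replicate 1 (adjusted p between 0.0606 and 0.14).

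In the thioredoxin system and NADPH supply the median was 0.20 (-0.27 under Sertoli scaling, with 0 higher and 11 lower). With the deposited factors 5 of 25 genes were higher and 0 lower, which is 20.0%, the same share as over all genes. They included Me1 (0.45, limma adjusted p = 0.00598) and Idh2 (0.45, limma adjusted p = 0.00228), enzymes that make NADPH, and the peroxiredoxin genes Prdx3 (0.37, limma adjusted p = 0.00708) and Prdx6 (0.33, limma adjusted p = 0.0148). Under Sertoli scaling these read -0.02, -0.03, -0.10 and -0.14. The number higher was 3 without any 1 cKO replicate and 9 without control replicate 1, and Prdx6 lost its call without any 1 cKO replicate (adjusted p between 0.0519 and 0.0704).

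Haem and iron genes went both ways, with 5 of 25 higher and 2 lower (28.0%, against 20.0% of all genes). The median was 0.16 (-0.31 under Sertoli scaling). Hmox2, the constitutive haem oxygenase gene, fell to 1802 ± 117 normalised read counts in cKO, against 2326 ± 203 in control (SD, n = 3 each; log2 fold change -0.37, limma adjusted p = 0.0124), and lost its call without cKO replicate 3 (adjusted p = 0.0771). Ncoa4, the receptor gene for the autophagy of ferritin, was lower too (-0.27, limma adjusted p = 0.049). The metalloreductase gene Steap3 (0.41, limma adjusted p = 0.00949), the iron exporter gene Slc40a1 (0.39, limma adjusted p = 0.00505) and the iron importer gene Slc11a2 (0.31, limma adjusted p = 0.0426) were among those higher, and read -0.06, -0.08 and -0.17 under Sertoli scaling. Steap3 lost its call without cKO replicate 2 (adjusted p = 0.0538) and Slc40a1 kept it without any 1 library. Slc11a2 lost it without any cKO replicate or control replicate 1 or 2 (between 0.0562 and 0.233), and Ncoa4 without any 1 of the 6 libraries (between 0.0521 and 0.212). Without 1 library the list had between 1 and 3 genes higher in 5 of the 6 cases.

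Genes that promote ferroptosis and those that hold it back apart from GPX4 had medians at that of all genes. The median of 20 genes of lipid peroxidation was 0.01 (-0.46 under Sertoli scaling). Among them 2 were higher and 0 lower (10.0%, against 20.0% of all genes). These were Cyb5r1 (0.38, limma adjusted p = 0.0146) and Acsl4, which loads polyunsaturated fatty acids for membrane lipids (0.30, limma adjusted p = 0.0331), and they read -0.09 and -0.17 under Sertoli scaling. Cyb5r1 lost its call without cKO replicate 1 or 3 or control replicate 1 (adjusted p between 0.0534 and 0.0823), and Acsl4 without cKO replicate 2 or 3 or control replicate 2 or 3 (between 0.0809 and 0.162). Of 19 genes of the suppressor list 2 were higher and 1 lower (15.8%, against 20.0% of all genes). The list median was 0.02 (-0.45 under Sertoli scaling). The small heat shock protein gene Hspb1 averaged 5188 ± 698 normalised read counts in cKO and 3376 ± 234 in control (SD, n = 3 each; log2 fold change 0.61, limma adjusted p = 0.000274), and the desaturase gene Scd2 had a value of 0.51 (limma adjusted p = 0.00584). Pdss1, which makes the side chain of coenzyme Q, fell (-0.75, limma adjusted p = 0.00251). Hspb1 (0.14) and Scd2 (0.03) were not called under Sertoli scaling.

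Of 13 genes of selenoprotein synthesis, on which GPX4 depends, the calls were 2 higher and 1 lower (23.1%, against 20.0% of all genes). The median was 0.16 (-0.32 under Sertoli scaling, and 0.04 without control replicate 3). Sephs1 (0.46, limma adjusted p = 0.0014) and Selenop, listed as Sepp1 (0.32, limma adjusted p = 0.0365), were higher, and Eefsec, the elongation factor gene for selenocysteine, was lower (-0.45, limma adjusted p = 0.00863). Under Sertoli scaling Sephs1 read -0.02 and Sepp1 -0.16. Sepp1 lost its call without any cKO replicate or control replicate 1 or 2 (adjusted p between 0.0551 and 0.173), and Eefsec without cKO replicate 3 (adjusted p = 0.067).

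**Figure D5:**
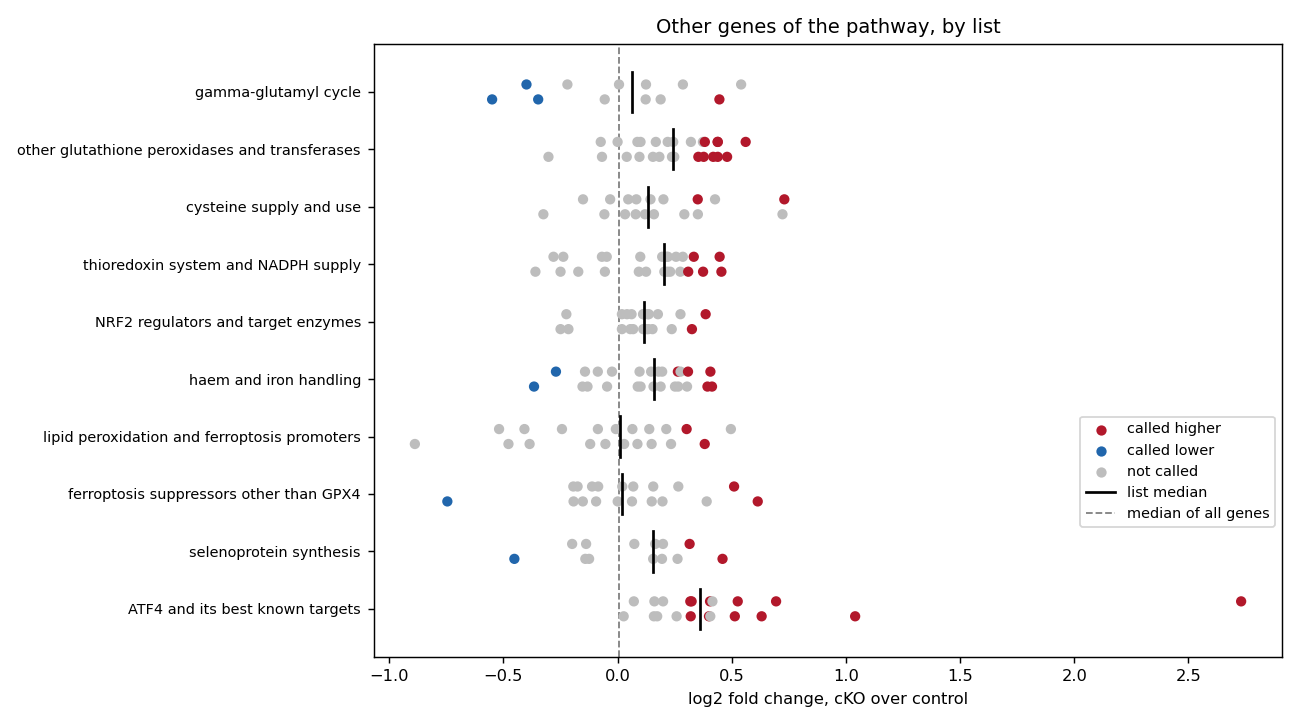
Log2 fold change (cKO over control) of each tested gene in the 10 lists, coloured by whether it was called higher, lower or not at an adjusted p under 0.05, with the list medians (black bars) and the median of all genes (dashed line, 0.01). The list of ATF4 and its targets has the highest median, at 0.36, and the promoters and suppressors of ferroptosis sit on the dashed line, at 0.01 and 0.02.

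Beside these lists, 14 of 20 germ cell markers were lower and 1 higher (median -0.62), where 20.0% of all genes were called in either direction. In the somatic lists 13 of 21 Sertoli markers were higher and 1 lower (median 0.46) and 8 of 12 Leydig markers were higher and 0 lower (median 0.46). Of 17 macrophage markers 7 were higher and 0 lower (median 0.31), and of 10 erythroid markers 2 were higher and 0 lower (median 0.44). Of 8 peritubular myoid markers 2 were lower and 0 higher (median -0.21), and of 10 endothelial markers 1 was higher and 1 lower (median -0.03). The part of these cell types in the differences of the 10 genes and of the pathway lists was not tested.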

How the data were processed

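Whole testes of day 10 mice were profiled by RNA sequencing in 3 cKO and 3 control libraries, grouped by sample title. Per the labels' protocols, total RNA was isolated with an RNeasy kit and libraries were made with a Hieff NGS mRNA kit. The submitters' processing notes name StringTie 1.3.1 and RSEM without saying what each did. For the aligner, build, annotation and strand setting, the entry is "not given in the sources used here".

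A single table with 22219 gene symbols was analysed. The signal values that the authors deposited are read counts divided by a size factor per library, as read from the values themselves: every column consisted of whole multiples of a fixed step (100% of values, tolerance 1e-06), which matched a DESeq-type size factor of 0.825 to 1.35. The lowest total over the 6 libraries was 10 reads. Genes were filtered with edgeR's filterByExpr (minimum count 10), which left 17570 genes. limma 3.58.1 (R 4.3.3), with an intensity-dependent prior, was fitted to log2(value + 2) for cKO against control, 2-sided. Fold changes on this scale understate low genes. P-values were adjusted by Benjamini-Hochberg over the 17570 genes, with 0.05 as the limit for a call. edgeR 4.0.16 and DESeq2 1.42.0 were run on the recovered reads. The fits were also run on simulated data with few changed genes, random directions and the same spread in both groups. These data differ from that setting, so that run does not show how well the calls hold here. No libraries were duplicates (chi-square per degree of freedom 10.6 or more). Intervals from counts would cover counting error only.

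The genes described, the lists and the tests were chosen with earlier results of these data known. Of 316 list genes 314 matched, 3 of them by a RefSeq synonym. Named genes were all 10 members, up to 4 called genes in each direction per list by size of change, a fixed set of regulators, and the 5 genes most like Chac1 and Gpx4; genes of cell type marker lists are given as sums and counts. Lengths are medians over protein-coding transcripts of the GENCODE M21 basic set. The identity of the CHAC1 and CHAC2 proteins was not analysed here. Of the genes the naming rule picked, 1 is not reported here by name and is kept in the counts.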

Additional observations from a re-analysis of the deposited data

How the results depend on the processing

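Alternatives were edgeR and DESeq2 on the recovered reads, pseudocounts of 1 and 8, no filter, library totals, scaling to the Sertoli list, the replicate number as a block, and each library left out in turn. Pseudocount and filter changed no call among the 10 genes. Over all genes 1692 were higher and 1829 lower, and the number higher was 807 with library totals and 37 under Sertoli scaling, where 9336 were lower; without 1 library it ran from 916 to 1764, and the number lower from 1278 to 1792. Of the 10 genes, 1 was higher with library totals and under Sertoli scaling, and between 1 and 3 without 1 library (Chac2 joined without control replicate 3); 1 (Gss) was lower by edgeR, DESeq2 and library totals, 5 under Sertoli scaling and 0 to 1 without 1 library. Of the other pathway genes, 22 were higher with library totals, 2 higher and 91 lower under Sertoli scaling, and 22 to 41 higher and 2 to 8 lower without 1 library. No pairing by replicate number was evident: residuals of same-numbered libraries correlated at -0.0379, -0.00235 and 0.0551. With 3 libraries per group, weak pairing could not be seen this way. With the replicate block the log2 fold change of Chac1 was 2.95 and that of Slc3a2 0.38, with 2 of the 10 genes higher and 0 lower, 1535 genes higher and 1771 lower over the table; Slc11a2 and Ncoa4 lost their calls. Ncoa4 also lost its call with no filter (adjusted p = 0.0568), and Ephx1 (adjusted p = 0.0556) and Slc11a2 (adjusted p = 0.0553) lost theirs by edgeR. With library totals, Slc3a2, Acsl4, Cyb5r1, Ephx1, Ggt5, Mpst, Prdx6, Sepp1, Slc11a2 and Ugdh were no longer called (adjusted p between 0.0538 and 0.179).

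Under Sertoli scaling these log2 fold changes turned: Slc3a2 -0.0949, Gpx4 -0.41, Acsl4 -0.17, Bach1 -0.34, Cyb5r1 -0.0949, Ephx1 -0.0904, Ggt5 -0.0294, Gpx7 -0.0373, Gstp1 -0.0374, Idh2 -0.0295, Keap1 -0.34, Me1 -0.022, Mpst -0.13, Nfe2l2 -0.36, Prdx3 -0.10, Prdx6 -0.14, Sephs1 -0.0169, Sepp1 -0.16, Slc11a2 -0.17, Slc40a1 -0.0828, Steap3 -0.0624 and Ugdh -0.15. Hmox1 (-0.25) and Chac2 (-0.0079), not called with either scaling, turned as well. By construction this scaling lowers genes together: the median of all genes was -0.46 under it and 0.01 with the deposited factors. With the longest transcript the levels per kilobase were, in cKO and control, 565 and 583 for Gclm, 8.91 and 5.82 for Slc7a11, 5270 and 4061 for Slc3a2, and 147 in cKO for Chac2. Depth limits Chac1 in control, with 12 to 26 reads, and Slc7a11, with 49 to 92 reads over all libraries.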
